A study of Saccharomyces cerevisiae with 6 samples.

Results

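The lower glycolysis enzyme genes of Saccharomyces cerevisiae were examined for binding of Rap1, by chromatin immunoprecipitation and sequencing, while histone H4 ran out. They are the 10 genes for the steps from aldolase to pyruvate kinase (FBA1, TPI1, TDH1, TDH2, TDH3, PGK1, GPM1, ENO1, ENO2 and CDC19), out of 6002 protein-coding genes. They were chosen by their place in the pathway. Any peak that overlapped the coding span or the 1000 bp before it was assigned to the gene, which gave 12 of 1212 peaks at 0 h, 19 of 2438 at 2 h and 21 of 4073 at 4 h. Every one of these peaks had its summit either inside the coding span, called intragenic here, or within the 1000 bp upstream.

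All samples came from the H4 shutoff strain UKY403, in which H4 synthesis depends on galactose. Cells were grown to mid-log phase in galactose medium and moved to dextrose medium, and 2 biological replicates from separate time courses were taken at each of 0, 2 and 4 h. Loss of H4 and the change from galactose to dextrose run together in this design and cannot be told apart in these lists, since the isogenic control strain UKY412 was not analysed here. The deposited values were 1 peak list per time point, with no values per replicate, so nothing was tested across samples.

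Rap1 is a general regulatory factor of yeast that binds upstream of ribosomal protein and glycolytic genes and coats the telomeres. At glycolytic genes it is known to act with the activators Gcr1 and Gcr2, and its upstream sites support the very high transcription for which these genes are known. The enzymes turn fructose bisphosphate into pyruvate. Aldolase cleaves the hexose, triose phosphate isomerase interconverts the products, and glyceraldehyde-3-phosphate dehydrogenase, phosphoglycerate kinase, phosphoglycerate mutase, enolase and pyruvate kinase carry the triose to pyruvate.

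Rap1 was listed upstream of all 10 genes before H4 was shut off and stayed listed there at 9 of them, while peaks inside the coding spans were listed in 2 genes at 0 h, 8 at 2 h and 9 at 4 h. An upstream summit in all 3 lists was found for 18.4% of all genes. Over all protein-coding genes, 21.7, 28.2 and 37.6% had a summit within 1000 bp upstream and 4.13, 21.0 and 37.1% had an intragenic summit at 0, 2 and 4 h. TDH2 was the gene without an upstream peak after 0 h, and GPM1 the gene without an intragenic peak in any list. New intragenic peaks, which share no base with a 0 h peak, were in 6 members at 2 h and in 7 at 4 h, against 17.5 and 34.2% of all genes. An upstream summit in all 3 lists together with an intragenic summit at 2 and 4 h was found in 7 members, a pattern of 4.35% of all genes.

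**Figure D1:**
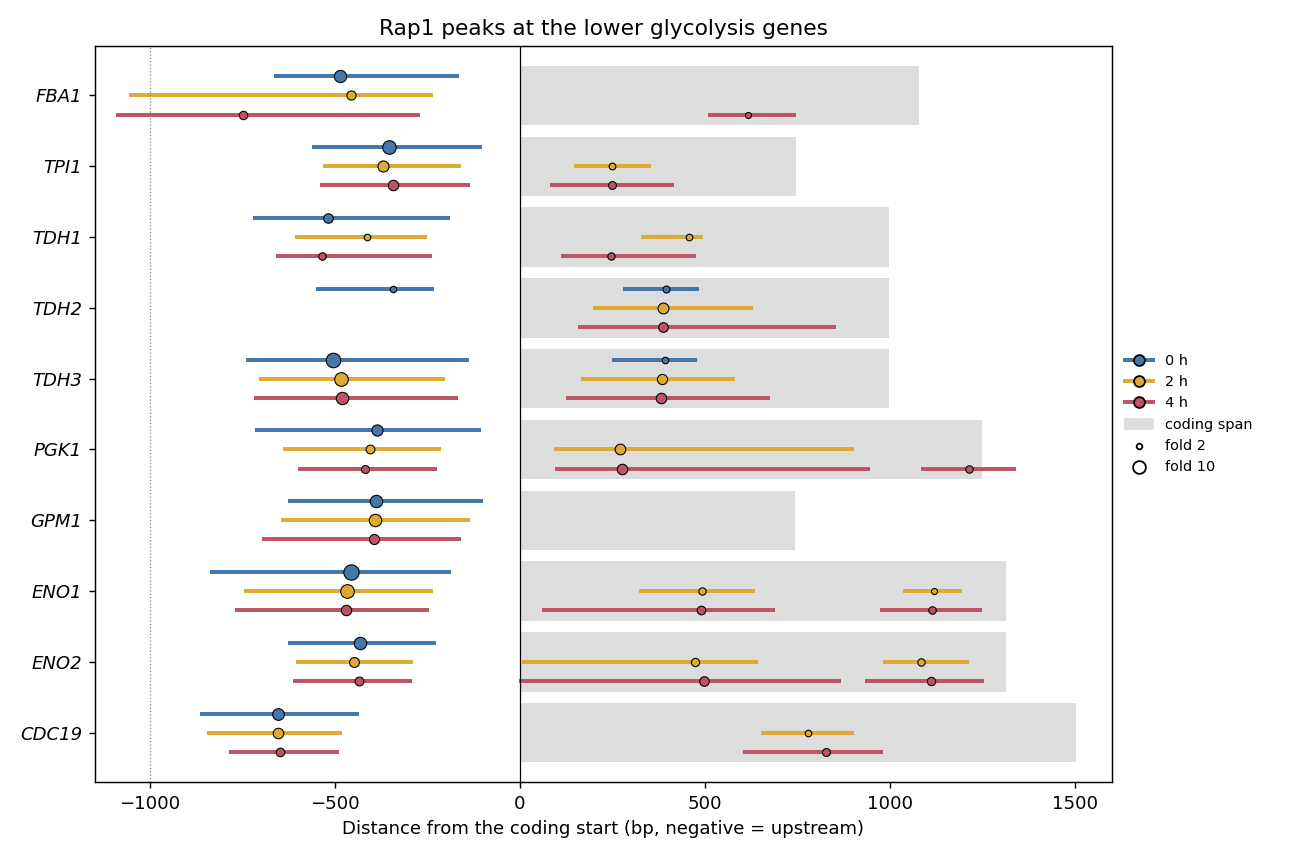
Peaks at the 10 genes, drawn as distance in bp from the coding start (horizontal axis), with 1 line per peak and a dot at its summit whose area is proportional to the fold enrichment. Grey boxes are coding spans and the dotted line marks 1000 bp upstream. Upstream peaks were present at 0 h (blue) in all genes, whereas most intragenic peaks appear only in the 2 h (yellow) and 4 h (red) lists.

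The coding spans of the members run from 744 to 1503 bp, and 2165 protein-coding genes have spans in that range. Of those genes 3.65, 19.4 and 35.7% had an intragenic summit at 0, 2 and 4 h. Per kb of coding span, the members held 0.183, 0.913 and 1.10 intragenic summits, against 0.0295, 0.165 and 0.337 over all genes. After duplicates were removed, 983197, 1483679 and 2327099 tags stood behind the 0, 2 and 4 h lists, so that the later ones could reach weaker sites. When height and background were scaled down to the kept tags of the 0 h list, every member peak still passed the weakest 0 h peak. Over all genes, 1201 of the 1259 with an intragenic summit at 2 h kept one, and 1949 of the 2226 at 4 h. Passing was thus common among all genes. When the later lists were instead cut to the 1212 peaks of highest −log10 q, as many as at 0 h, intragenic summits remained listed in 4 members at 2 h and 6 at 4 h, against 9.46 and 11.0% of all genes. New intragenic peaks were then in 2 and 4 members, against 6.30 and 8.03% of all genes.

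**Figure D2:**
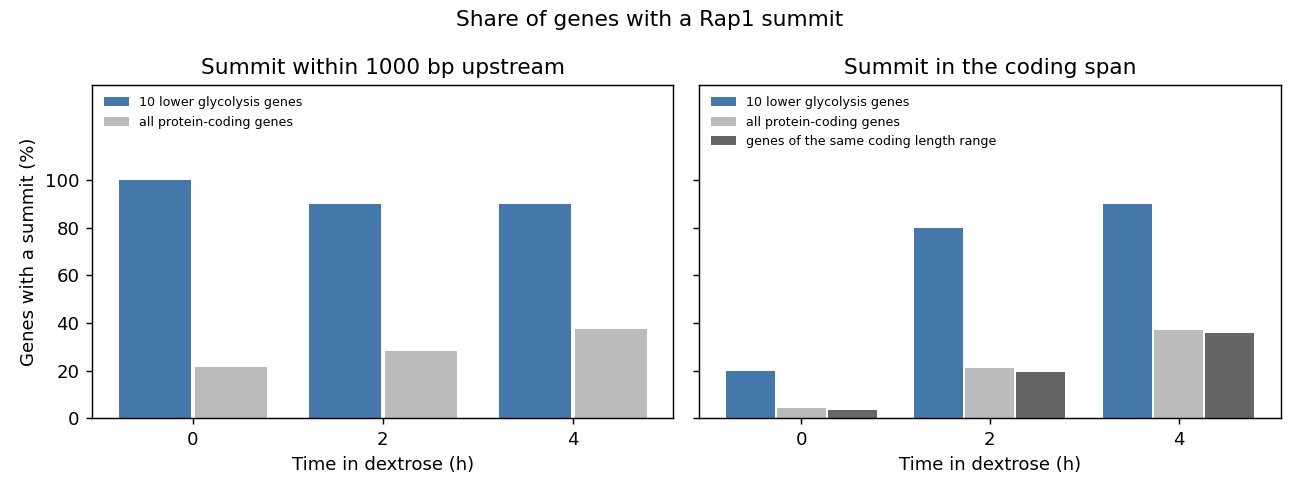
Percent of genes with a summit within 1000 bp upstream (left) or inside the coding span (right) in the 0, 2 and 4 h lists. Blue bars are the 10 lower glycolysis genes, light grey bars all 6002 protein-coding genes, and dark grey bars the 2165 genes of the same coding length range. The blue intragenic bars stand at 20, 80 and 90%.

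Each peak has a height and a fold enrichment. Height is the number of extended tags over the summit, for which a 95% exact Poisson interval is given where heights are compared. It cannot pass 292, because only 1 tag was kept per position and strand. Fold enrichment is the authors' own ratio of that height to the local background in the same list. Being computed from height, it is held down by the same limit at tall peaks. Fold enrichments are ranked only within a list. Intervals cover counting error only and take no account of the limit of 292. They can pass it at tall peaks, as upstream of ENO1 at 4 h (257 to 324), and are only approximate there.

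FBA1 encodes aldolase and lies on the minus strand of chromosome XI, 326408 to 327487 (R64 assembly, the same assembly as sacCer3, for all coordinates). Its upstream summit lay 485 bp before the coding start at 0 h (fold enrichment 9.21) and 457 bp before it at 2 h (5.14). At 4 h the same broad peak had its summit 749 bp upstream (4.35), inside the coding span of the neighbouring gene MPE1. The peak thus stayed listed while its highest point moved by 292 bp between 2 and 4 h. Inside FBA1 a single peak was listed at 4 h, 616 bp after the coding start, with a height of 112 and a fold enrichment of 2.29. This was the lowest fold enrichment of the 12 intragenic member peaks at 4 h.

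TPI1, for triose phosphate isomerase, lies on the minus strand of chromosome IV, 555726 to 556472. Upstream it held fold enrichments of 11.2, 7.49 and 6.67 at 0, 2 and 4 h, with summits 353, 371 and 343 bp before the coding start. An intragenic peak was absent from the 0 h list and present later at nearly the same base, 249 bp after the start at 2 h and 248 bp at 4 h. Its height was 51 at 2 h and 108 at 4 h, with fold enrichments of 2.76 and 3.77. The summit stood at 33.3 and 33.2% of the coding span at 2 and 4 h, and its height was below that of the upstream peak in both lists.

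The glyceraldehyde-3-phosphate dehydrogenase genes TDH1, TDH2 and TDH3 encode isoforms of the same enzyme, and they differed most in their upstream peaks. TDH3, the main isoform, lies on the minus strand of chromosome VII, 882812 to 883810. Upstream its heights were 240, 264 and 278 at 0, 2 and 4 h, with fold enrichments of 13.0, 11.4 and 9.37. At 4 h this peak ranked 48 of 4073 by fold enrichment, the best rank of any member peak. TDH1, on the plus strand of chromosome X, 338271 to 339269, had upstream heights of 70, 49 and 98 and fold enrichments of 5.54, 2.66 and 3.42. TDH2, on the minus strand of the same chromosome, 453683 to 454681, had an upstream peak of height 34 and fold enrichment 2.54 at 0 h and none at 2 or 4 h. The counting interval of that height, 23.5 to 47.5, lay below those of the other 9 upstream peaks at 0 h.

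Inside the coding spans the order among these isoforms was different. TDH2 and TDH3 were the members with an intragenic peak already at 0 h, with heights of 39 and 50 and fold enrichments of 2.98 and 2.63. Both were weak at that time, ranking 913 and 1045 of 1212 by fold enrichment. At 2 and 4 h the TDH2 peak had heights of 135 and 165 (fold enrichment 7.23 and 5.73), and the TDH3 peak heights of 148 and 200 (6.35 and 6.78). Scaled by the kept tags (height per 1000000 kept tags), TDH2 held 39.7, 91.0 and 70.9 and TDH3 50.9, 99.8 and 85.9 at 0, 2 and 4 h. On that scale both later values of each gene were higher than the 0 h value, and the 4 h values were below those at 2 h. This scale does not undo the limit of 1 tag per position, which lowers tall peaks more in deeper lists.

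The summits in TDH2 and TDH3 stood at matching places, 395 and 393 bp after the coding start at 0 h, 387 and 384 bp at 2 h, and 387 and 383 bp at 4 h. TDH1 differed, with its intragenic summit at 458 bp at 2 h and 246 bp at 4 h, within overlapping peaks of heights 50 and 94 and fold enrichments of 2.71 and 3.28. These summits are also within 1000 bp upstream of the small reading frame YJL052C-A on the opposite strand. TDH2 and TDH3 are closely related in their coding sequence. Tags that match both copies cannot be told apart, and how they were placed is not known here. Their intragenic values are therefore uncertain as values of separate genes. The upstream peaks of TDH2 and TDH3 lay 161 bp apart relative to the coding starts at 0 h and differed in height, 34 against 240.

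PGK1, for phosphoglycerate kinase, lies on the plus strand of chromosome III, 137746 to 138996. Its upstream heights were 104, 94 and 127 at 0, 2 and 4 h, with fold enrichments of 7.69, 4.74 and 3.96. That summit, 386 to 418 bp before PGK1, is also within 1000 bp of the start of the divergent gene ADP1, for a putative transporter, and cannot be assigned to PGK1 alone. Intragenic binding was not listed at 0 h. At 2 h a peak spanned 93 to 903 bp after the start, with its summit at 271 bp, a height of 136 and a fold enrichment of 6.94. At 4 h it reached 212 and 6.72, with its summit at 277 bp. PGK1 was the member whose intragenic peak stood above its upstream peak in both later lists, with ratios of heights of 1.45 at 2 h (95% exact interval 1.10 to 1.90) and 1.67 in the last list (1.33 to 2.10). A further peak, at 1214 bp with a height of 106, appeared at 4 h and ran past the end of the coding span.

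GPM1 encodes phosphoglycerate mutase and lies on the minus strand of chromosome XI, 163642 to 164385. Upstream heights were 173, 228 and 224 at 0, 2 and 4 h, with fold enrichments of 9.46, 9.47 and 6.26. The summit stayed within 4 bp, at 389, 391 and 393 bp before the coding start. No peak overlapped the GPM1 coding span in any list, and the upstream peak ended 100, 134 and 158 bp before it. With 744 bp this is the shortest coding span of the members. TPI1, at 747 bp, held an intragenic peak at 2 and 4 h. A relation to coding length was not tested.

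The enolase genes ENO1 and ENO2 were alike in where Rap1 peaks lay. ENO1, on the plus strand of chromosome VII, 1000927 to 1002240, had the tallest upstream peaks of the members, with heights of 261, 279 and 289 and fold enrichments of 14.4, 11.5 and 6.63 at 0, 2 and 4 h. The last of these heights is close to the limit of 292. ENO2, on the plus strand of chromosome VIII, 451327 to 452640, had upstream heights of 146, 130 and 174 and fold enrichments of 9.50, 6.03 and 4.79. Its upstream summit, 432 to 449 bp before the coding start, falls inside the annotated reading frame YHR173C on the opposite strand.

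Each enolase gene held a pair of intragenic peaks at 2 and 4 h and none at 0 h. In ENO1 the summits lay 493 and 1119 bp after the coding start at 2 h and 491 and 1115 bp at 4 h. In ENO2 they lay at 473 and 1085 bp at 2 h and at 498 and 1113 bp at 4 h. At 4 h the corresponding summits of the isoforms were thus 7 and 2 bp apart. The first peak had heights of 78 and 194 in ENO1 and 91 and 202 in ENO2 at 2 and 4 h. The second had heights of 52 and 146 in ENO1 and 74 and 154 in ENO2. The first peak was the higher of the pair in both genes and both lists, but the counting intervals of the pair overlapped in each case. As with the dehydrogenase genes, the coding sequences are closely related and shared tags cannot be told apart. The first ENO2 peak is also within 1000 bp upstream of YHR173C. The second lies within 1000 bp upstream of the next gene, the copper transporter gene CTR2.

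CDC19, for pyruvate kinase, lies on the plus strand of chromosome I, 71786 to 73288, and has the longest coding span of the members. Its upstream summit was the most distant at 0 and 2 h, 655 and 654 bp before the coding start, and lay at 649 bp at 4 h. Upstream heights were 207, 254 and 249, with fold enrichments of 8.41, 6.76 and 4.44. An intragenic peak was listed at 2 h, 779 bp after the start, with a height of 99, and at 4 h, at 827 bp, with a height of 219. The latter was the highest intragenic height of the members, yet its fold enrichment was 3.85. The local background there was 56.2 tags, against 28.6 at the intragenic peak of TDH3, so the order by height and the order by fold enrichment differ for this gene.

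By upstream height, the order ENO1, TDH3, CDC19, GPM1, TPI1, ENO2, FBA1, PGK1, TDH1 was the same in all 3 lists, with TDH2 last at 0 h. Counting intervals of neighbours in that order overlapped except between TDH1 and TDH2 at 0 h, between GPM1 and TPI1 at 2 h, and between PGK1 and TDH1 at 2 h. By upstream fold enrichment the order was another and changed between lists. ENO1 was first at 0 and 2 h (14.4 and 11.5), and TDH3 was first at 4 h (9.37, against 6.63 for ENO1). At 4 h the local background was 42.8 tags upstream of ENO1 and 28.8 upstream of TDH3. The heights there were 289 and 278, both close to the limit of 292. By intragenic height the order at 2 h was TDH3, PGK1, TDH2, CDC19, ENO2, ENO1, TPI1 and TDH1, and no neighbours were apart. At 4 h CDC19, PGK1, ENO2, TDH3, ENO1 and TDH2 led with heights from 219 to 165, followed by FBA1, TPI1 and TDH1 with 112 to 94. The only neighbours with separate intervals at 4 h were TDH2 (141 to 192) and FBA1 (92.2 to 135).

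**Figure D3:**
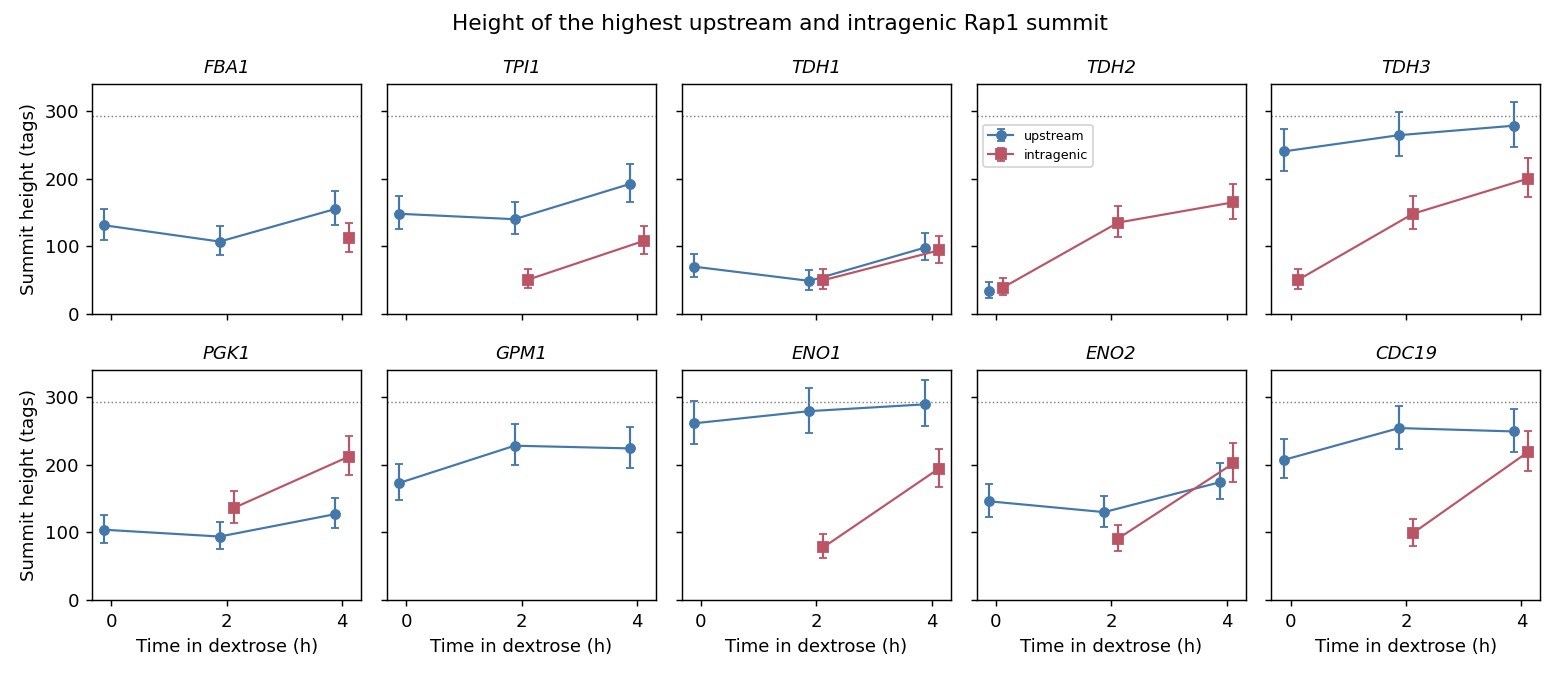
Height in tags of the highest upstream (blue circles) and intragenic (red squares) summit of each gene against hours in dextrose, with bars for the 95% exact Poisson interval and a dotted line at the limit of 292. The bars take no account of that limit and can pass it. A missing point means that no peak was listed. Heights are not scaled for depth, so the levels are to be compared within a time point. PGK1 is higher inside than upstream at 2 and 4 h.

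Within a list, the highest intragenic height was divided by the upstream height of the same gene. This ratio does not depend on scaling by depth, apart from the limit on height. Both heights include the local background, which was not subtracted. At the intragenic peak of CDC19 the background was 36.7 of 99 tags at 2 h and 56.2 of 219 at 4 h. Its effect on the ratios was not tested. The ratio was computed for the members only, so no share over all genes stands beside the counts given here. Over all genes, 21.0 and 37.1% had an intragenic summit at 2 and 4 h. For the 7 members with both kinds of peak at 2 and 4 h, the ratio was higher at 4 h in 6. It went from 0.280 to 0.671 in ENO1, from 0.390 to 0.880 in CDC19 and from 0.700 to 1.16 in ENO2, and for these genes the 95% exact intervals at the 2 times were apart. In TPI1 (0.364 and 0.563), TDH3 (0.561 and 0.719) and PGK1 the intervals overlapped, and TDH1 had ratios of 1.02 and 0.959. In TDH3 the ratio had been 0.208 (0.150 to 0.284) at 0 h, and 0.109 with heights corrected for the limit on height. Since the upstream peaks of ENO1, CDC19 and TDH3 were near the limit, the limit holds down those heights most and so raises these ratios. The intervals of the ratios take no account of the limit, so for these genes they are only approximate. Heights corrected for that limit gave 0.0999 and 0.238 for ENO1, 0.203 and 0.724 for CDC19, and 0.302 and 0.380 for TDH3 at 2 and 4 h. With that correction 6 of the 7 genes again had the higher ratio at 4 h.

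**Figure D4:**
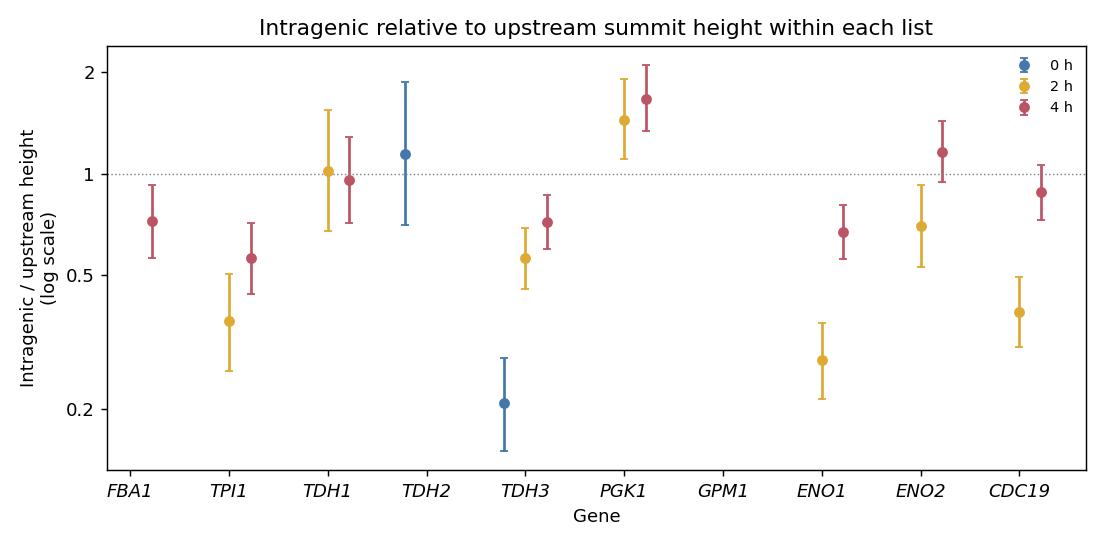
Ratio of the highest intragenic to the highest upstream summit height within each list (log axis), with bars for the 95% exact interval. The dotted line marks equal heights, and genes or times without a point lacked one kind of peak. PGK1 lies above the line at 2 and 4 h, and ENO1, ENO2 and CDC19 are higher at 4 h (red) than at 2 h (yellow).

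Both kinds of member peak covered a wide range within their lists. By fold enrichment, upstream member peaks stood between the top 12.5 and 88.6% of the list at 0 h. The 88.6% was that of TDH2, which had no upstream peak at 4 h, and the next was TDH1 at 47.9%. At 4 h they stood between the top 1.18 and 43.0%. The lists differ in length (1212 and 4073 peaks), so these shares are not to be compared between times. Intragenic member peaks reached down to the top 75.2% at 4 h, with a median at the top 32.9%, against 24.5% for upstream ones. The median fold enrichment of member peaks upstream was 9.34, 6.76 and 4.79 at 0, 2 and 4 h, against 5.70, 4.25 and 3.45 for upstream summits of all genes. For new intragenic peaks it was 3.02 and 3.81 at 2 and 4 h in the members, against 2.92 and 2.76 over all genes. Member upstream summits lay 343 to 749 bp before the coding start and none within 250 bp, with medians of 444, 449 and 471 bp at 0, 2 and 4 h against 378, 460 and 498 bp for all genes. The members' median was thus the more distant only at 0 h. Intragenic member summits had a median position of 38.5% of the coding span at 4 h, against 46.9% over all genes. No sequence was read, so motifs at these sites were not analysed here.

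Summits mostly kept their place from list to list. Between 0 and 4 h, the upstream summit moved by a median of 14 bp over the 9 genes with both, and by 3 bp at the least, in ENO2. The widest shift, 264 bp, was that of FBA1. Between 2 and 4 h, 10 intragenic peaks had a counterpart, at a median distance of 5 bp, from 0 bp in TDH2 to 212 bp in TDH1. Upstream peaks of the members had median lengths of 516, 428 and 422 bp at 0, 2 and 4 h.

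Of 19 other genes of the pathway and its regulators, 14, 15 and 15 had an upstream summit and 0, 8 and 13 an intragenic summit at 0, 2 and 4 h. Over all genes, 21.7, 28.2 and 37.6% had an upstream summit and 4.13, 21.0 and 37.1% an intragenic one. All 6 upper glycolysis genes (HXK1, HXK2, GLK1, PGI1, PFK1 and PFK2) had an upstream summit in every list, and 0, 2 and 6 of them an intragenic one. Their highest upstream fold enrichments at 0 h ranged from 4.45 in HXK2 to 12.4 in PFK2. The highest intragenic fold enrichments at 4 h were those of the pyruvate decarboxylase genes PDC5 (9.25) and PDC1 (7.27) and of the phosphofructokinase genes PFK1 (7.62) and PFK2 (6.65). The PDC5 and PDC1 summits lay at matching places, 754 and 752 bp after the coding start. Any tags that match both genes cannot be told apart, so these values are uncertain as values of separate genes. PYK2, the minor pyruvate kinase isoform, had upstream peaks with fold enrichments of 10.9, 7.69 and 5.54. Its intragenic summits lay 788 bp after the coding start at 2 h and 775 bp at 4 h, near the places seen in CDC19 (779 and 827 bp). Here too, any tags that match both genes cannot be told apart. Of the GPM1 homologues, GPM2 had an upstream peak in all lists (6.09, 4.36 and 3.53), GPM3 had none, and neither had an intragenic one. GPM1 lacked an intragenic peak too, as did most protein-coding genes in each list.

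Other genes with an upstream summit at 0 h were PDC1 (13.6) and ADH1 (15.8) of fermentation and PCK1 (4.06) of gluconeogenesis. FBP1, for fructose bisphosphatase of gluconeogenesis, lacked an upstream peak and held an intragenic one at 2 h (4.14) and 4 h (5.69). Among the regulators, RAP1 itself (16.8), TYE7 (13.1) and GCR1 (10.5) had upstream peaks at 0 h. GCR1 alone among the 4 regulators examined had intragenic summits later, the highest at 4 h with a fold enrichment of 2.43. Over all genes, 21.0 and 37.1% had an intragenic summit at 2 and 4 h. GCR2 had no summit in either place.

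The genes whose peaks were most like the median of the members were found from 6 values per gene. These were the highest upstream and intragenic fold enrichment in each of the 3 lists, on a log2 scale. A fold enrichment of 1 was entered where no summit was listed, as upstream of TDH2 at 2 and 4 h. WSC4 was nearest (distance 0.0676), with upstream values of 9.21, 6.49 and 4.73 and intragenic values of 2.98 and 4.06 at 2 and 4 h. PRY3 (0.314), NET1 (0.370), IDP2 (0.376) and ADE8 (0.378) followed, PRY3 and NET1 with the same upstream values in all 3 lists. Of the members, CDC19 was the nearest to the median (0.285) and TDH2 the farthest (4.45).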

How the data were processed

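Rap1 was immunoprecipitated from crosslinked UKY403 cells, per the labels' protocols. The submitters' processing notes name Bowtie, SAMtools and MACS2, and sacCer3 as build. MACS2 2.0.10.20130712 was run without a control library, per the file headers, at a q cutoff of 0.05, with tags extended by 147 bp, at most 1 tag per position and strand, and background taken over 10000 bp. Uneven fragmentation or mapping is thus uncorrected. The headers name 1 alignment file per list and do not say whether both replicates went into it. The deposited height is a signal of extended tags, not scaled for depth. The fold enrichment is the deposited ratio of height to local background, and the −log10 of the q value was likewise computed by the authors' caller. Of all tags, 40.4, 30.6 and 37.8% were kept at 0, 2 and 4 h.

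Coding spans came from the RefSeq gene table of R64 and strands from the systematic names, and all 10 symbols matched. An upstream summit counted also where it fell in another coding span. Local background was recovered from height and fold enrichment. For scaling to 0 h, both were divided by the ratio of kept tags and a Poisson p recomputed. Ratios of heights have exact binomial intervals, which treat tags as independent. The correction for the limit of 292 assumes tags spread evenly over positions and was chosen after seeing the data. The assignment was tested on simulated data, with 400 of 400 summits recovered. The members and lists were chosen with earlier results of these data known. Named were all members, pathway genes with a 0 h summit or among the 4 highest fold enrichments at 4 h, the 5 genes of most like pattern, and neighbours that share a summit. FBP1, GPM3 and GCR2 were named after their values were seen. Python 3.11.15, pandas 2.3.3, numpy 2.4.6 and scipy 1.17.1 were used.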

Additional observations from a re-analysis of the deposited data

How the results depend on the processing

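No paired analysis was possible because each list gives 1 set of values per time point, so leaving out a replicate was not possible either. The planned motif search was not run, since no sequence was used. Of 54 alternative counts of members, 45 were within 1.5 times the main count and 9 were not. Requiring a fold enrichment of at least 3 left intragenic summits in 0 members at 0 h and 5 at 2 h, and new intragenic peaks in 3 members at 2 h, against 3.23, 12.1 and 8.93% of all genes. Keeping as many peaks as at 0 h left 4 members with an intragenic summit at 2 h and new intragenic peaks in 2 members at 2 h and 4 at 4 h, against 9.46, 6.30 and 8.03% of all genes. An upstream window of 250 bp left 0 members at 0, 2 and 4 h, against 6.26, 6.63 and 8.30% of all genes. Fewer peaks or bases were considered in each of these by construction. The counts stayed within 1.5 times of the main count with −log10 q of at least 5 and with any overlap. The same held with scaling to the kept tags at 0 h and with new peaks set by summit distance. It also held for summits at least 200 bp inside both ends. A window of 500 bp gave 7, 8 and 6 members, against 14.9, 16.7 and 20.5% of all genes. Leaving out summits in another coding span gave 9, 8 and 7 members, against 19.53, 19.96 and 22.16% of all genes. Both settings were also within 1.5 times of the main count. Correcting heights for the limit moved 9 of 17 ratios beyond their counting interval.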
